A study of Rattus norvegicus with 4 samples.

Results

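The 10 genes described here encode receptors and regulators of autophagy and mitophagy: Sqstm1, Nbr1 and Optn, Becn1 and Ulk1, Map1lc3a, Map1lc3b and Gabarapl1, and Pink1 and Bnip3. They were chosen by symbol, each has 1 row in the deposited table, and they are 10 of 14137 gene identifiers. Expression was measured by RNA sequencing of total RNA from neonatal rat ventricular myocytes (NRVMs), which are freshly isolated heart muscle cells grown in culture beside some non-muscle cells. The Crat hairpin group (labelled KO, 2 libraries) received lentivirus expressing a short hairpin RNA against Crat. The control hairpin group (labelled WT, 2 libraries) received lentivirus expressing a control hairpin. All cultures were therefore infected, and all were harvested at day 5. Crat encodes carnitine acetyltransferase, a mitochondrial enzyme that transfers acetyl groups from coenzyme A to carnitine and back. The labels call the group a knockout while the design text describes a hairpin, so a lowered transcript, not a deleted allele, is what the group carries. Strain, sex and the number of hairpin sequences are not stated in the labels. Nothing there says that paired libraries derive from separate cultures. The p-values thus measure only the spread between these libraries, partly pooled across genes, and that spread may be technical.

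Autophagy encloses part of the cytoplasm in a membrane and delivers it to the lysosome. The ULK1 kinase complex starts it, Beclin 1 in the class III phosphatidylinositol 3-kinase complex marks the growing membrane, and ATG8 proteins of the LC3 and GABARAP branches are attached to that membrane. Receptors such as SQSTM1 (p62), NBR1 and optineurin bind ubiquitin-tagged cargo with one surface and ATG8 proteins with another. In mitophagy the cargo is a mitochondrion, tagged after the kinase PINK1 accumulates on it or held by the outer membrane receptor BNIP3. Heart muscle, which is rich in mitochondria, depends on this turnover. The measurements below are transcript levels and do not measure how much cargo was degraded.

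The reads recovered from the deposited values came to 321516 and 1622998 in Crat hairpin replicates 1 and 2, against 23680064 and 1321735 in control replicates 1 and 2, a 73.7-fold range. The 10 genes held 20 to 103 reads each in Crat hairpin replicate 1, 96 to 583 in Crat hairpin replicate 2, 987 to 4389 in control replicate 1 and 61 to 215 in control replicate 2. Values are reads scaled to the library total (RPM), not divided by gene length, so levels are compared between groups and not between genes. Crat stood at 24.9 and 19.7 RPM in the Crat hairpin libraries, against 148 and 156 RPM in the control libraries (log2 fold change -2.72 ± 0.19, SE; limma adjusted p = 7.3e-06). Of 6 cardiomyocyte markers tested 5 fell, and the list summed to 6821 and 7143 RPM in the Crat hairpin libraries, against 16179 and 16631 RPM in the control libraries. Myh6, the alpha myosin heavy chain, stood at 2858 and 3056 RPM in the Crat hairpin libraries, against 8573 and 9126 RPM in the control libraries. Tnnt2, cardiac troponin T, had 1810 and 1762 RPM in the Crat hairpin libraries, against 4190 and 4064 RPM in the control libraries. Fibroblast markers, led by Col1a1 and Col1a2, which encode the chains of type I collagen, summed to 12740 and 12754 RPM in the Crat hairpin libraries, against 14886 and 15595 RPM in the control libraries. Of these 7 markers 2 were higher, Pdgfra (log2 fold change 2.10) and Dcn (1.12). The 3 lower were Col1a1 (-0.23), Col1a2 (-0.63) and Postn (-0.19), so the sum does not stand for every marker of the list. Smooth muscle and pericyte markers, led by Acta2 and Tagln, summed to 1863 and 1786 RPM in the Crat hairpin libraries, against 5164 and 5271 RPM in the control libraries, with 1 of 7 higher (0 under either of the other scalings described below) and 5 lower. Endothelial markers, led by Kdr and Tek, summed to 52.9 and 57.9 RPM in the Crat hairpin libraries, against 29.1 and 34.8 RPM in the control libraries, with 1 of 4 tested higher and 0 lower. Leukocyte markers, led by Laptm5 and Fcer1g, summed to 52.9 and 38.2 RPM in the Crat hairpin libraries, against 40.2 and 37.8 RPM in the control libraries, with 0 of 6 past the threshold. The endothelial Vwf had no read in either Crat hairpin library, and Rgs5, Cdh5, Csf1r and Cd3e had none in Crat hairpin replicate 1. In that replicate 1 read was worth 3.11 RPM. Vwf, Cdh5, Csf1r and Cd3e stood at 0.38 to 3.03 RPM in the control libraries, and Rgs5 at 5.11 and 3.78 RPM. The absence of reads is therefore not read as a loss. In such bulk samples fewer cells of a type and less RNA per cell cannot be told apart, and the part these markers have in the results below was not tested.

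The transcripts of all 3 cargo receptors were called higher in the Crat hairpin libraries. Nbr1 was 2.37-fold and Sqstm1 1.93-fold their control level, and these rises passed the threshold in limma, in edgeR, in DESeq2 and in the authors' deposited table. Optn, Becn1 and Gabarapl1 rose by a log2 fold change of 0.59 to 0.64 and passed in limma and edgeR but not in DESeq2 or in the authors' deposited table. Ulk1, Map1lc3a, Map1lc3b, Pink1 and Bnip3 did not pass in limma. Thus 5 of the 10 genes were called higher and 0 lower, where 12.6% of the 12949 genes tested were called higher and 6.36% lower (19.0% either way). edgeR called 5 higher and 1 lower, against 13.7% and 15.9% of all genes (29.6% either way). DESeq2 called 2 higher and 0 lower, against 6.13% and 7.09% (13.2% either way), and 2 and 0 passed in the authors' deposited table, against 4.91% and 5.60% (10.5% either way). Among the 3487 genes whose mean level in RPM (not per length) lay between those of Ulk1 and Sqstm1, the lowest and highest of the 10 on that scale, 25.4% were called higher and 10.7% lower.

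NBR1 is a ubiquitin receptor that acts beside p62 and also on peroxisomes. Nbr1 had 320.4 and 322 RPM in the Crat hairpin libraries, against 132 and 138 RPM in the control libraries. The Crat hairpin values were almost equal to each other, and the groups stood far apart. The log2 fold change was 1.25 ± 0.10 (SE, 2 libraries against 2; limma adjusted p = 2.1e-05; 95% interval 1.02 to 1.47), the largest of the 10. In the shallowest library it rested on 103 reads, with a Poisson interval of 261 to 389 RPM, which lies above both control libraries.

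SQSTM1, or p62, gathers ubiquitin-tagged cargo, is itself consumed by autophagy, and binds KEAP1, the repressor of the antioxidant factor NRF2. Sqstm1 had 314 and 359 RPM in the Crat hairpin libraries, against 185 and 163 RPM in the control libraries. Both Crat hairpin values lay above both controls, with a wider gap inside each pair than for Nbr1. The log2 fold change was 0.95 ± 0.11 (SE; limma adjusted p = 3.0e-04; 95% interval 0.70 to 1.20). Fitted without a variance trend, where 2.66% of all genes were called (2.05% higher, 0.61% lower), Nbr1 and Sqstm1 did not pass (adjusted p = 0.0530 and 0.0936).

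Optineurin binds ubiquitin on damaged mitochondria and on bacteria. Optn had 168 and 177 RPM in the Crat hairpin libraries, against 119 and 109 RPM in the control libraries, and the groups did not overlap. The log2 fold change was 0.59 ± 0.12 (SE; limma adjusted p = 0.00818), and 0.37 in edgeR (adjusted p = 0.00758). It was 0.40 in DESeq2 (adjusted p = 0.212), and the authors' deposited table gives an adjusted p of 0.289 for Optn. Measured against Sqstm1 in the same library, which no scaling can alter, the log2 ratio of Optn was -0.90 and -1.02 in the Crat hairpin libraries, against -0.63 and -0.58 in the control libraries, so Optn was lower relative to Sqstm1 in both Crat hairpin libraries. The log2 ratio of Nbr1 to Sqstm1 was 0.03 and -0.16 in the Crat hairpin libraries, against -0.49 and -0.24 in the control libraries, so Nbr1 was higher relative to Sqstm1. These ratios were chosen after their values were seen, and an exact permutation test of 2 libraries against 2 cannot go below p = 0.333.

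**Figure D1:**
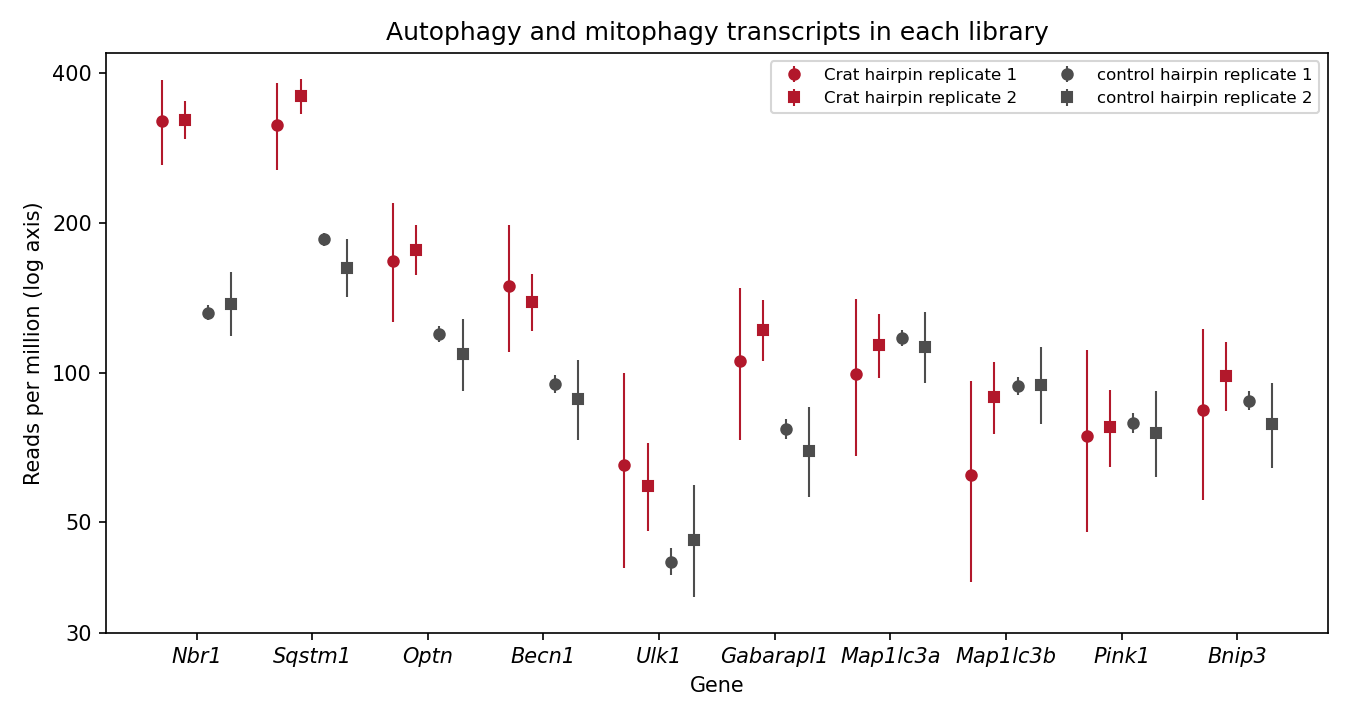
Level of each of the 10 genes in each library in RPM on a log axis, Crat hairpin libraries in red and control hairpin libraries in grey, with circles for replicate 1, squares for replicate 2 and bars for the 95% Poisson interval of the reads. Nbr1 at 320.4 and 322 RPM stands clear of its controls at 132 and 138 RPM, while the values of Pink1 and Bnip3 overlap between the groups.

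The stretches of 250 bases before the annotated starts of Nbr1, Sqstm1 and Optn are shown because these receptor transcripts were all called higher, and that of Pink1 because its transcript was not called. They come from RefSeq's GRCr8 table, in which 8 of the 10 genes matched by symbol (Map1lc3a and Becn1 were not matched), and run 5′ to 3′ on the gene's strand. GRCr8 is not the build of the expression table, mRatBN7.2. Nbr1 lies at chr10:86978299-86978548, plus strand, Sqstm1 at chr10:35037751-35038000, minus strand, Optn at chr17:78118619-78118868, plus strand and Pink1 at chr5:155825951-155826200, minus strand. Capitals mark matches, on either strand, to 6 motifs searched over the 300 bases from 250 before to 50 after each start.
Nbr1: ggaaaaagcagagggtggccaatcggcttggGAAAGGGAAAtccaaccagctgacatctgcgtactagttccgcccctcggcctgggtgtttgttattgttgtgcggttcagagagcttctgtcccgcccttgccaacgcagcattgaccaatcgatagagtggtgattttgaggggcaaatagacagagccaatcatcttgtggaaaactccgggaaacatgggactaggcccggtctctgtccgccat
Sqstm1: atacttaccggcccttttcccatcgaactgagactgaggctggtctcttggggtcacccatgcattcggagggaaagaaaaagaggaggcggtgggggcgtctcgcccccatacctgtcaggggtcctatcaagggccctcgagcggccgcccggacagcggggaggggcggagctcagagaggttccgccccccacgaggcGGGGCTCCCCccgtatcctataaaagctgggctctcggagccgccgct
Optn: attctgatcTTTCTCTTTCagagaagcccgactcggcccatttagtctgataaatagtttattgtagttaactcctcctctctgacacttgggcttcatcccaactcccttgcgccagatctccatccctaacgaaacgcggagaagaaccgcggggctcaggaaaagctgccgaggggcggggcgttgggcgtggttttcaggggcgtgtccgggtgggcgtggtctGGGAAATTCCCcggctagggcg
Pink1: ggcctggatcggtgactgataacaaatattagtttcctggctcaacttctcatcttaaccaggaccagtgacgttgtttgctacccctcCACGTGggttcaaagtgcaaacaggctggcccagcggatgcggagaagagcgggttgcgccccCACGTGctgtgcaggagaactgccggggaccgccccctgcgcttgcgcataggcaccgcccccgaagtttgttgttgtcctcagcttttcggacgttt

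The capitals of Nbr1 and the left capitals of Optn match the core of the interferon-stimulated response element (GAAA, any pair of bases, GAAA), which 3.92% of all 33465 promoter windows hold. The capitals of Sqstm1 and the right capitals of Optn match the NF-kB consensus, held by 4.18%. The left match in Optn is on the opposite strand, and its right capitals hold overlapping matches on both strands. The capitals of Pink1 are a pair of CACGTG boxes, the centre of the CLEAR elements bound by TFEB, TFE3 and MITF, held by 6.42% of windows. Bnip3 holds 1 such box too, 99 bases before its start. Each such box also contains the hypoxia response core ACGTG, which 19.3% of windows hold and which Gabarapl1 holds 25 bases after its start. The antioxidant response core TGACNNNGC was found in Map1lc3b, across its start, and in 12.1% of windows, and the FOXO core TGTTTAC in none of the 8 genes and in 3.78% of windows. Ulk1 held none of the 6. A match is a string of letters and not a site shown to be bound.

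Becn1 encodes Beclin 1, the scaffold of the class III phosphatidylinositol 3-kinase complexes. Becn1 had 149 and 139 RPM in the Crat hairpin libraries, against 94.9 and 88.5 RPM in the control libraries, without overlap. The log2 fold change was 0.64 ± 0.13 (SE; limma adjusted p = 0.00769). It was 0.38 in edgeR (adjusted p = 0.0124) and 0.43 in DESeq2 (adjusted p = 0.224), and the authors' deposited table gives an adjusted p of 0.695 for Becn1. Without control replicate 1 or control replicate 2 the Becn1 call was lost (adjusted p = 0.149 and 0.113), and the same held for Optn (adjusted p = 0.135 and 0.134) and for Gabarapl1 (adjusted p = 0.204 and 0.237).

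Ulk1 encodes the kinase that starts autophagosome formation and that AMPK and mTORC1 regulate. Ulk1 had 65.3 and 59.1 RPM in the Crat hairpin libraries, against 41.7 and 46.2 RPM in the control libraries. The groups did not overlap, but the log2 fold change of 0.49 ± 0.19 (SE) did not pass (limma adjusted p = 0.0997; 95% interval 0.08 to 0.91). Ulk1 was at 0.30 under median-of-ratios scaling, in edgeR and in DESeq2 and at 0.29 under TMM scaling. It passed in 1 of 14 alternatives, the fit without Crat hairpin replicate 2 (0.56), which leaves 1 library in that group. Crat hairpin replicate 1 held 21 reads of Ulk1, with a Poisson interval of 40.4 to 99.8 RPM that takes in the level of the libraries of either group.

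The ATG8 transcripts had changes on both sides of 0. Gabarapl1, which encodes a GABARAP branch protein, had 106 and 122 RPM in the Crat hairpin libraries, against 77.2 and 69.6 RPM in the control libraries. It rose by a log2 fold change of 0.63 ± 0.15 (SE; limma adjusted p = 0.0180), 0.44 in edgeR (adjusted p = 0.00641) and 0.46 in DESeq2 (adjusted p = 0.270), and the authors' deposited table gives an adjusted p of 0.360 for Gabarapl1. In Crat hairpin replicate 1 Gabarapl1 rested on 34 reads, with a Poisson interval of 73.2 to 148 RPM that takes in control replicate 1. Map1lc3a and Map1lc3b encode LC3A and LC3B, the ATG8 proteins most used as markers of autophagosomes. Map1lc3a had 99.5 and 113 RPM in the Crat hairpin libraries, against 117 and 113 RPM in the control libraries, and the groups overlapped (log2 fold change -0.11 ± 0.14, SE; limma adjusted p = 0.613; 95% interval -0.42 to 0.19). Map1lc3b had 62.2 and 89.3 RPM in the Crat hairpin libraries, against 94.0 and 94.6 RPM in the control libraries. Both Crat hairpin values lay below the controls, but that of replicate 1 rested on 20 reads, with a Poisson interval of 38.0 to 96.1 RPM. The Map1lc3b log2 fold change of -0.33 ± 0.19 (SE) did not pass in limma (adjusted p = 0.263; 95% interval -0.76 to 0.09). Map1lc3b passed as lower in edgeR (-0.37, adjusted p = 0.0385), where 15.9% of all genes were called lower, and not in DESeq2 (-0.42, adjusted p = 0.397). In limma without Crat hairpin replicate 2, which leaves 1 library in that group, the Map1lc3b log2 fold change was -0.59.

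The reads of the 5 ATG8 genes tested were pooled within each library, which removes the effect of scaling on their proportions. Gabarapl1 held 16.2% and 17.8% of them in the Crat hairpin libraries, against 12.8% and 11.9% in the control libraries. Map1lc3b held 9.52% and 13.0% in the Crat hairpin libraries, against 15.6% and 16.2% in the control libraries. Map1lc3a held 15.2% and 16.5% in the Crat hairpin libraries, against 19.5% and 19.4% in the control libraries. Gabarapl2 held 11.9% and 12.6% in the Crat hairpin libraries, against 10.96% and 9.87% in the control libraries. The shares of Gabarapl1 and Gabarapl2 were higher, and those of both LC3 genes lower, in each Crat hairpin library than in each control library. In Crat hairpin replicate 1 the Wilson 95% intervals, over 210 reads, were 11.8% to 21.8% for Gabarapl1 and 8.195% to 16.98% for Gabarapl2. They were 11.005% to 20.72% for Map1lc3a and 6.25% to 14.3% for Map1lc3b. The intervals of Gabarapl1, Gabarapl2 and Map1lc3a took in both control shares of the same gene, while that of Map1lc3b lay below both. Such intervals cover counting error only. Gabarap, which gives that branch its name, held 47.1% and 40.1% in the Crat hairpin libraries, against 41.1% and 42.6% in the control libraries, so its groups overlapped. The log2 ratio of Gabarapl1 to Map1lc3b was 0.77 and 0.45 in the Crat hairpin libraries, against -0.29 and -0.44 in the control libraries. These shares and this ratio were chosen after the values were seen.

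**Figure D2:**
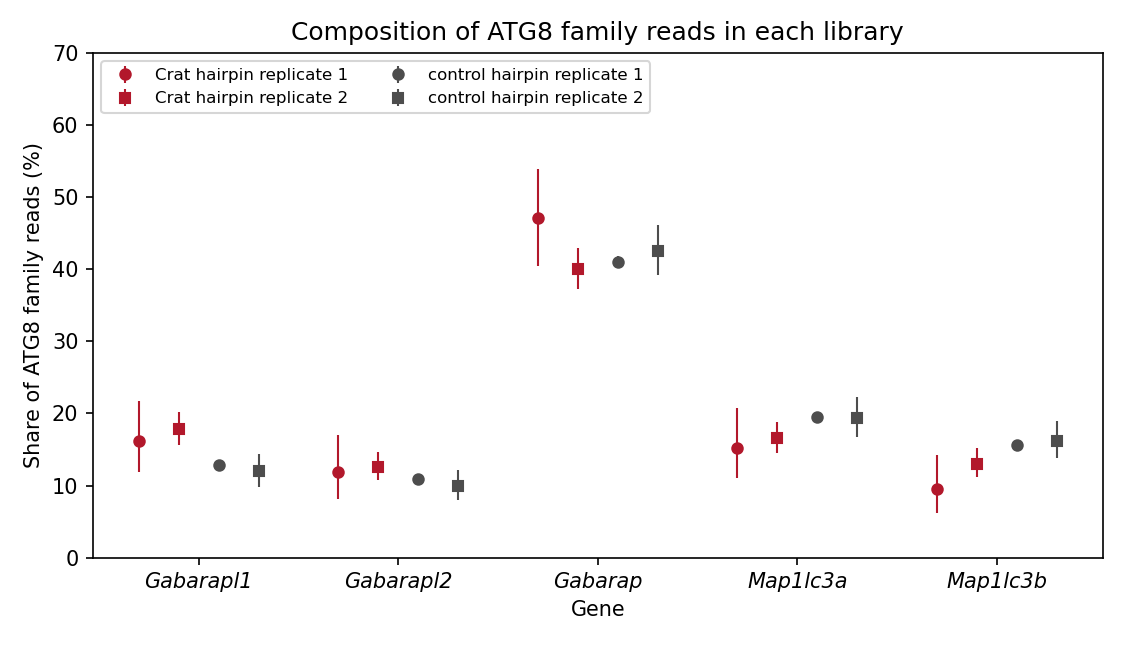
Share of the reads of 5 ATG8 genes that belongs to each gene, in percent, in each library, Crat hairpin libraries in red and control hairpin libraries in grey, with bars for the Wilson 95% interval. Gabarapl1 lies at 16.2% and 17.8% in the Crat hairpin libraries, above its control libraries at 12.8% and 11.9%, and Map1lc3b at 9.52% and 13.0% lies below its control libraries at 15.6% and 16.2%.

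Neither Pink1 nor Bnip3 passed the threshold in any of the fits run. PINK1 is the kinase that accumulates on depolarised mitochondria and phosphorylates ubiquitin there. Pink1 had 74.6 and 77.6 RPM in the Crat hairpin libraries, against 79.3 and 75.7 RPM in the control libraries. Its log2 fold change was -0.024 ± 0.15 (SE; limma adjusted p = 0.933; 95% interval -0.37 to 0.32). BNIP3 is an outer membrane receptor whose gene is induced by hypoxia. Bnip3 had 84.0 and 98.6 RPM in the Crat hairpin libraries, against 87.8 and 78.7 RPM in the control libraries. Its log2 fold change was 0.13 ± 0.16 (SE; limma adjusted p = 0.615; 95% interval -0.22 to 0.48), and the value was -0.062 under median-of-ratios scaling and -0.075 under TMM scaling. The groups overlapped for both genes, and changes within these intervals are not excluded.

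Across the 10 genes the Crat hairpin libraries lay above both controls in 6, where 39.1% of all genes tested did (60.8% lay clear of the controls either way), and below both in 1, Map1lc3b, where 21.7% did. The median log2 fold change of the 10 was 0.54, and that of all genes tested was 0.15. Under median-of-ratios scaling the median of all genes was -0.032 and that of the 10 was 0.35, and under TMM scaling they were -0.045 and 0.34. Median-of-ratios and TMM scaling set libraries level by their typical gene and not by their total. Nbr1, Sqstm1 and Becn1 were called under median-of-ratios scaling, where 17.7% of genes were called (8.06% higher, 9.68% lower), while Optn and Gabarapl1 were not (adjusted p = 0.0511 and 0.0837). Under TMM scaling, where 17.7% were called (7.76% higher, 9.89% lower), Nbr1 and Sqstm1 were called, and Becn1, Optn and Gabarapl1 were not (adjusted p = 0.0506, 0.0683 and 0.103).

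**Figure D3:**
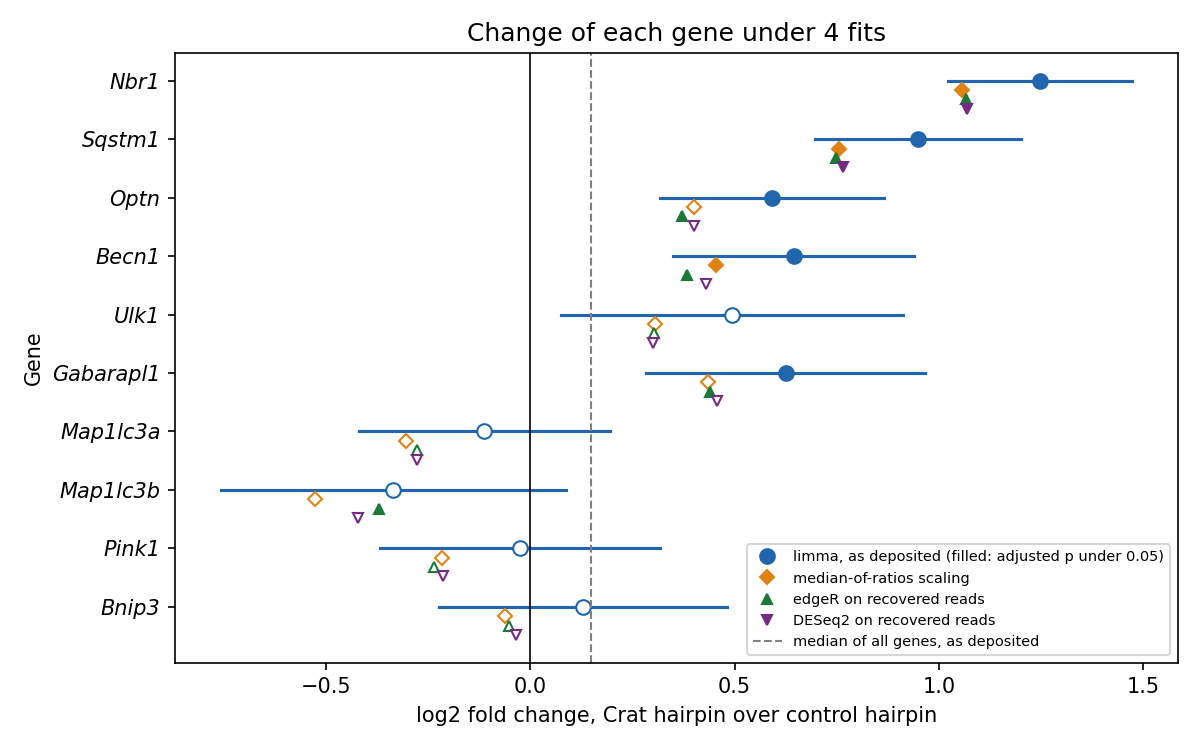
log2 fold change of each of the 10 genes, Crat hairpin over control hairpin, with blue circles and 95% intervals for limma on the deposited scale and other symbols for median-of-ratios scaling, edgeR and DESeq2. Filled symbols have an adjusted p under 0.05, and the dashed line is the median of all genes tested, 0.15. Nbr1 and Sqstm1 are filled in all 4 fits, and the values of Pink1 and Bnip3 lie near 0 in the fit on the deposited scale.

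The other genes of autophagy were taken from 8 lists of 99 genes, of which 96 were tested. Of these 20 (20.8%) were called higher and 2 (2.08%) lower, with a median log2 fold change of 0.34. Among all genes tested 12.6% were called higher and 6.36% lower, and among those at the level of the 10 genes 25.4% and 10.7%. Several of the 96 have a mean level below that of the 10 genes, so the second pair of shares is not matched to them. Under either of the other scalings 11 (11.5%) were higher and 3 lower, where 8.06% and 7.76% of all genes were called higher. Atg13, which holds the ULK complex together, rose to 131 and 111 RPM in the Crat hairpin libraries, against 46.6 and 42.4 RPM in the control libraries (log2 fold change 1.42; limma adjusted p = 2.9e-04). It was the only one of the 4 other genes of the ULK complex to pass, and Rb1cc1, which encodes the scaffold FIP200, had a log2 fold change of 0.18 (-0.016 and -0.029 under the other scalings). In the class III kinase complexes 1 of 7 other genes was higher and 0 lower (0 and 0 under either of the other scalings): Pik3r4, the regulatory subunit, at 0.74. Uvrag and Rubcn, which tune these complexes, had values of 0.54 and -0.25.

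Among 19 genes of lipid supply and ATG8 conjugation 3 were higher and 1 lower (0 and 1 under either of the other scalings). Again, 12.6% of all genes tested were higher and 6.36% lower. The lipid carriers Atg2a and Atg2b rose by 0.60 and 0.58 and the membrane protein Vmp1 by 0.54 on the log2 scale, and Wdr45b, which binds phosphatidylinositol 3-phosphate, had 9.33 and 10.5 RPM in the Crat hairpin libraries, against 30.6 and 35.6 RPM in the control libraries. The Wdr45b log2 fold change of -1.64 passed in limma (adjusted p = 0.00442), edgeR and DESeq2 (adjusted p = 0.00664), although Crat hairpin replicate 1 held 3 reads of it. Neither Gabarap nor Gabarapl2 passed, at log2 fold changes of 0.23 and 0.41, and the identifier of Gabarapl2 also carries the symbol LOC100359937. Of 12 other cargo receptors and adaptors 2 were higher and 0 lower, under either of the other scalings as well. Wdfy3, which encodes the aggregate adaptor ALFY, rose to 212 and 211 RPM in the Crat hairpin libraries, against 121 and 132 RPM in the control libraries (log2 fold change 0.74; limma adjusted p = 0.00153). The other, at 0.78, is the endoplasmic reticulum receptor Retreg1, whose identifier is shared with Zfp622 so that the gene cannot be told.

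Of 16 other mitophagy genes 2 were higher and 1 lower (1 and 2 under either of the other scalings). For this list and the next, the shares over all genes tested were 12.6% higher and 6.36% lower. Phb2, an inner membrane protein that can bind LC3, rose by 0.82 on the log2 scale and the mitochondrial ubiquitin ligase Mul1 by 0.86. Tomm7 encodes a small subunit of the outer membrane import channel that helps hold PINK1. It had 21.8 and 24.0 RPM in the Crat hairpin libraries, against 41.5 and 47.7 RPM in the control libraries. Its log2 fold change was -0.93 (limma adjusted p = 0.0211). Crat hairpin replicate 1 held 7 reads of Tomm7, with a Poisson interval of 8.75 to 44.9 RPM that takes in control replicate 1. Tomm7 passed in edgeR as well but not in DESeq2 (adjusted p = 0.0552). Of 15 genes of autophagosome fusion with lysosomes 2 were higher and 0 lower (0 and 0 under either of the other scalings), Vamp8, a fusion protein of the SNARE family, at a log2 fold change of 0.81 and the lysosomal membrane protein Lamp2 at 0.33.

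Of the nutrient kinases and transcription regulators 9 of 21 were higher and 0 lower (7 and 0 under either of the other scalings), with a median of 0.62. The shares over all genes tested were 12.6% and 6.36%, with a median of 0.15. Mitf, which with Tfeb and Tfe3 forms the family that drives lysosomal and autophagy genes, rose to 65.3 and 49.9 RPM in the Crat hairpin libraries, against 21.5 and 19.7 RPM in the control libraries (log2 fold change 1.43; limma adjusted p = 0.00249). Sesn3 and Sesn2, which restrain mTORC1, rose by 1.29 and 1.20 on the log2 scale, and Tfe3 by 0.86. Tfeb, at a log2 fold change of 0.65, did not pass (limma adjusted p = 0.155).

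The KEAP1-NRF2 list was included because p62 protein binds KEAP1. Of its 10 genes 3 were higher and 0 lower (2 and 0 under either of the other scalings), with a median of 0.69. Over all genes tested the shares were 12.6% and 6.36% and the median 0.15. Nfe2l2, which encodes NRF2, rose to 429 and 352 RPM in the Crat hairpin libraries, against 194 and 182 RPM in the control libraries (log2 fold change 1.04; limma adjusted p = 1.7e-04). Hmox1, haem oxygenase, rose by 1.34 on the log2 scale and Keap1 itself by 0.80 (limma adjusted p = 0.0188, and 0.0608 under median-of-ratios scaling). The 7 others of the list were not called. Among them Nqo1 had 15.6 and 35.1 RPM in the Crat hairpin libraries, against 31.4 and 40.1 RPM in the control libraries. Its log2 fold change was -0.58 (limma adjusted p = 0.314), while 9 of the 10 genes lay above 0.

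Hypoxia-inducible genes were included because Bnip3 is one. Of 15 tested 6 were higher and 0 lower (5 and 2 under median-of-ratios scaling, 4 and 2 under TMM scaling). Ndrg1 rose by 1.78 on the log2 scale, though Crat hairpin replicate 1 held 11 reads of it. Vegfa, the vascular growth factor, rose to 638 and 558 RPM in the Crat hairpin libraries, against 248 and 249 RPM in the control libraries (log2 fold change 1.26; limma adjusted p = 8.8e-06). The glucose carrier Slc2a1 rose by 1.15 and Hif1a, the hypoxia factor, by 0.92. The genes called lower under either of the other scalings were Ldha (-0.28 under median-of-ratios and -0.29 under TMM scaling) and P4ha2 (-0.38 and -0.39). The median log2 fold change of the list was 0.46 in limma, and 12.6% of all genes tested were called higher. Bnip3 was not called, and neither were 9 of the 15. Whether the change of Bnip3 differs from that of the others was not tested.

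**Figure D4:**
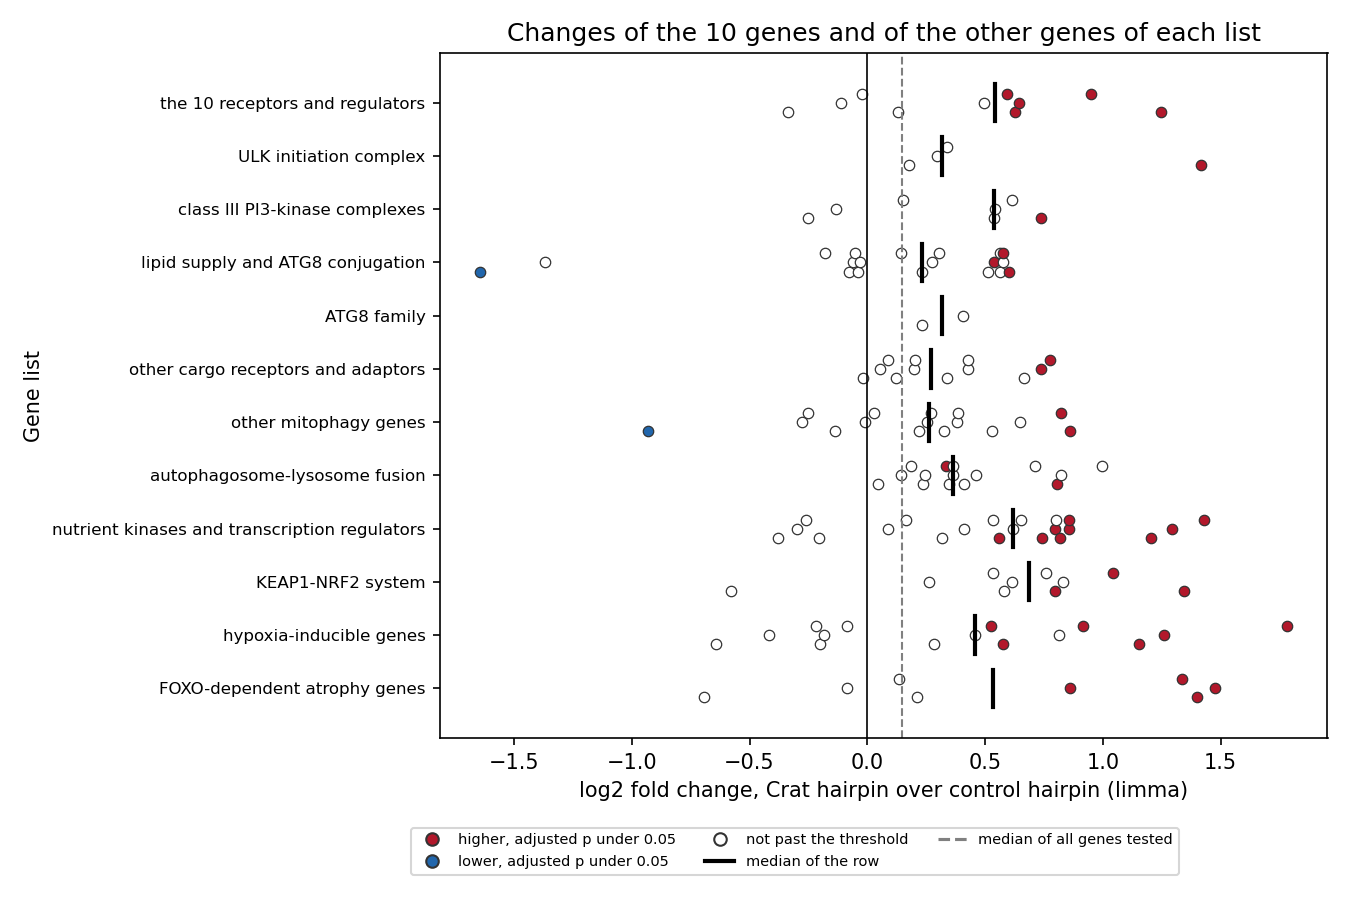
log2 fold change (limma) of the 10 genes and of the other tested genes of each list, Crat hairpin over control hairpin, 1 point a gene, red where called higher, blue where called lower, open where not past the threshold; black bars mark medians and the dashed line the median of all genes tested, 0.15. The nutrient kinases and transcription regulators hold 9 red points of 21, and the lipid supply list holds Wdr45b at -1.64.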

How the data were processed

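Total RNA of NRVMs was sequenced (Illumina), per the labels' protocols. Kallisto, DESeq2 and the build mRatBN7.2 come from the submitters' processing notes, which give no versions. Summing and filtering of gene values are not described there. The authors deposited 1 table of 14318 rows (14137 gene identifiers, each used once). Per the file headers these are TPM, but the deposited signal is RPM: 100% of values in each library are whole multiples of that library's step within 0.02 of a read, with no sign of gene length. The authors' p-values and adjusted p-values were read as deposited.

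Genes averaging 1 RPM or more were fitted as log2(value + 1) with limma 3.58.1 (R 4.3.3, variance trend, Crat hairpin against control hairpin), with Benjamini-Hochberg adjustment over 12949 genes and a threshold of 0.05. Fold changes on that scale understate the change of low genes. The limma standard errors and p-values combine each gene's own spread with a trend of spread over level fitted to all genes. The recovered reads were also tested with edgeR 4.0.16 (3839 genes called) and DESeq2 1.42.0 (1613 called). The fits were tested on simulated reads. Replicates of a group differed beyond counting error (chi-square per degree of freedom 1.29 for the Crat hairpin pair and 1.47 for the control pair). That excess can be technical and does not show separate cultures; each library counted as a sample because the labels list it as one. Poisson and Wilson intervals (95%) cover counting error only. The members and lists were chosen with earlier results of these data known. Named are the 10 genes, Crat and the 2 highest of each marker list. From each other list come up to 4 genes past the threshold by size of change (2 by mean level where fewer than 2 passed). Pdgfra, Dcn, Postn, Vwf, Rgs5, Cdh5, Csf1r, Cd3e, Tfeb, Trim63, Nqo1, Ldha and P4ha2 are named beyond that rule, chosen after their values were seen. Calcoco2, Atg4a, Egln1, Ttn, Pln and Pecam1 were not analysed here.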

Additional observations from a re-analysis of the deposited data

How the results depend on the processing

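Of 14 alternatives that give a fold change, Crat kept its call in all 14, and Nbr1 and Sqstm1 in 13, losing it without a variance trend. All genes called numbered 2454 (1631 higher, 823 lower). They were 1044 higher and 1254 lower under median-of-ratios scaling, 1005 and 1281 under TMM scaling, 345 in all (266 and 79) without a variance trend, 3839 in all with 2065 lower in edgeR, 1613 with 748 higher in DESeq2 and 1486 with 694 higher by the authors' deposited adjusted p-value. Of the 10 genes, 3 were called (3 higher) under median-of-ratios scaling, 2 (2 higher) under TMM scaling, in DESeq2 and by the authors' deposited adjusted p-value, 0 (0 higher) in limma without a variance trend, and 1 lower in edgeR. Without the trend 6 of the 10, and 26.0% of all genes tested, had an unadjusted p under 0.05. With 1 library left out, all genes called ran from 601 to 6252 (425 to 3632 higher, 176 to 2620 lower), and the 10 genes called from 2 to 7 (2 to 6 higher, 0 to 1 lower), a lone library being assumed to vary like the other group; all genes called were 3882 and 6252 without Crat hairpin replicate 1 or 2, and 601 and 1271 without control replicate 1 or 2. Other pseudocounts and filters left 5 of the 10 called.

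Signs turned in genes that were not called. Bnip3 was -0.062, -0.075, -0.053 and -0.036 under median-of-ratios scaling, TMM scaling, edgeR and DESeq2, Rb1cc1 -0.016 and -0.029 under the scalings, Gabarap -0.013 in edgeR, Laptm5 -0.016 and -0.027 in edgeR and DESeq2, and Tek -0.055, -0.068, -0.14 and -0.12 in the order given for Bnip3. With a library left out Pink1 ran from -0.058 to 0.0088, Rb1cc1 from -0.0049 to 0.36, Tek from -0.14 to 0.39, Laptm5 from -0.14 to 0.54 and Fcer1g from -0.83 to 0.35. The causes were not tested.

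Deviations of same-numbered libraries did not go together (correlation 0.022 over 7645 genes), so the numbers were not taken as pairs; with the replicate number as a block 2596 genes and 5 of the 10 were called. Depth limits the Crat hairpin values: 1 read was worth 3.11 RPM in replicate 1.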

Other observations

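Genes of muscle atrophy that depend on FOXO factors, which in muscle also drive autophagy genes, were higher in 4 of 8 cases and lower in 0 (4 and 1 under either of the other scalings). Their median log2 fold change was 0.53. Over all genes tested 12.6% were called higher and 6.36% lower, with a median of 0.15. Klf15, a transcription factor, rose by 1.48 on the log2 scale, though Crat hairpin replicate 1 held 10 reads of it. Klf15 passed in limma and edgeR but not in DESeq2 (adjusted p = 0.139). Gadd45a, a stress gene of growth arrest, rose by 1.40 on the log2 scale (limma adjusted p = 1.1e-04). Gadd45a had 171 and 189 RPM in the Crat hairpin libraries, against 62.9 and 72.6 RPM in the control libraries. The repressor Bcl6 rose by 1.34 and the ubiquitin ligase Fbxo32, or atrogin-1, by 0.86. The other ubiquitin ligase of that pair, Trim63 or MuRF1, had 49.8 and 54.2 RPM in the Crat hairpin libraries, against 42.0 and 53.0 RPM in the control libraries, a log2 fold change of 0.14 that did not pass (limma adjusted p = 0.685) and was -0.053 under median-of-ratios scaling; it was named after its value was seen.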
